A study of Mus musculus with 3 samples.

Results

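Fibrillar collagens are the proteins that build the banded fibrils of connective tissue. Described here are the probes of 8 of their genes, Col1a1, Col1a2, Col3a1, Col5a1, Col5a2, Col5a3, Col11a1 and Col27a1, in RM1, a mouse prostate cancer cell line. They were picked by gene name among the noncontrol probes of the arrays, a rule that uses no measured value although the genes were proposed with earlier results of these data known, and each gene had 1 probe, giving 8 of 39429 distinct probes and of 30342 gene names on the array. A pair of RM1 derivatives was compared. RM1-MXRA7 is the line labelled as overexpressing MXRA7, a gene named for its association with matrix remodelling, and RM1-VE is the line set against it. Both were kept in DMEM with 10% fetal calf serum and 400 µg/mL G418 and harvested on day 2, while growing exponentially. The promoter that drives MXRA7, the number of clones in each line and whether the repeats were separate cultures or transfections are not stated in the labels. Labelled cRNA from total RNA of both lines was hybridized together on 3 Agilent arrays of 60-base probes, numbered as repeats 1 to 3, with RM1-MXRA7 in Cy3 and RM1-VE in Cy5 on all 3.

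Fibrillar collagen chains wind in groups into a long helix, are secreted as procollagen, lose their propeptides outside the cell and then pack side by side into fibrils. Type I collagen joins the chains of Col1a1 and Col1a2 and is the main fibril of skin, bone and tendon. Type III collagen is made of Col3a1 chains alone and is found with type I in stretchable tissues. Type V collagen, made of Col5a1, Col5a2 and in some tissues Col5a3 chains, starts fibrils and limits their width. Type XI and type XXVII collagens, with the Col11a1 and Col27a1 chains, are best known from cartilage. In tumours of epithelial origin the type I and type III chains are usually ascribed to fibroblasts of the stroma, although cancer cells can transcribe them too.

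Each value below is the signal of 1 probe, so the stretch of transcript that a probe reads decides what it counts. The first 30 of the 60 bases of the 5 probes that gave signal, all sense strand as the array files list them, are printed to show how unlike each other they are.
Col1a1 probe: tgaccaactgaacgtgaccaaaaaccaaaa
Col1a2 probe: accaagaattccgtgtggaggttggccccg
Col3a1 probe: ataagccaaactctctgaaaccccagcaaa
Col5a1 probe: cctgaccttcaaaagatgttctgaggtggt
Col5a3 probe: tctgtggtctatttaatttgcttccttctg
Between any of the 8 whole probes the longest identical run was 9 bases, and no longer stretch was shared among them. The Col1a1 probe lay at chr11:94813115-94813174 on the plus strand and the Col1a2 probe at chr6:4490619-4490678 on the plus strand (mm9 coordinates from the array files throughout, for probes). The Col3a1 probe lay at chr1:45405589-45405648 (plus), that of Col5a1 at chr2:27892892-27892951 (plus) and that of Col5a3 at chr9:20574592-20574651 (minus). The files place their starts at transcript positions 4642, 4218, 4601, 6263 and 5928 for Col1a1, Col1a2, Col3a1, Col5a1 and Col5a3. Transcripts that lack these stretches are not read.

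Of all distinct probes, 21767 to 24172 were well above background per channel and array, and 21791 were tested. Their log2 ratios of RM1-MXRA7 over RM1-VE correlated between array pairs with Pearson's r of 0.818, 0.744 and 0.826, across probes, which are not independent replicates. limma called 6924 probes at an adjusted p of 0.05, 3664 of them higher in RM1-MXRA7 (52.9%), whereas median centring in place of loess gave 916 higher and 14260 lower (6.04% higher) and moved the median of all probes to -0.28. Mxra7 itself did not pass, with log2 ratios of 0.019 (limma adjusted p = 0.83) and 0.090 (limma adjusted p = 0.259) on its 2 probes, with the surface trend of each array removed. Without that removal the brighter probe was called higher in RM1-MXRA7, at 0.31 (limma adjusted p = 0.00446), and in the scanner software's processed signals it lay at -0.034 (limma adjusted p = 0.701). The transfected gene thus gives no check of the direction that holds across the processings, and directions rest on the dyes given in the labels. Of the markers of the labelled cell type, Krt8, Krt18 and Krt19 were above background and Epcam and Cdh1 were not. Of the prostate markers described here, Fkbp5 and Foxa1 were above background, and Hoxb13, Pbsn and Tmprss2 were not. Of 9 mesenchymal and fibroblast markers 7 were above background, with Vim at 0.11 and Pdgfrb at 0.12, both not called, and Dcn higher by 0.26, while Lum and Thy1 were not above background. Markers called with larger ratios were Krt19 at -0.85 (limma adjusted p = 1.5e-05), Foxa1 at 0.66, the smooth muscle marker Acta2 at -0.70 and the endothelial marker Cdh5 at -0.77, and the T cell marker Cd3e was called at -0.19. Above background were 2 of 4 smooth muscle, 3 of 4 endothelial, 2 of 5 haematopoietic and 0 of 5 bone and cartilage markers. Their part in the collagen values was not tested.

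The chains of the major fibrils differed between the lines in opposite directions. Col3a1 rose 3.59-fold in RM1-MXRA7, Col1a1 fell 3.33-fold, and Col5a3 and Col1a2 rose by smaller amounts, 1.38-fold and 1.23-fold. Of the 5 chains with signal, 3 rose, 1 fell and 1, Col5a1, did not pass, and the other 3 chains were not above background in either line. For comparison, limma called 31.8% of all tested probes, 16.8% higher and 15% lower, so a call by itself is common on these arrays. A difference of at least 2-fold is not: it was called for 0.349% of probes upward and 0.578% downward, and Col3a1 and Col1a1 are among them. All 4 called chains were also called the same way without removal of the surface trend and in the scanner software's processed signals, as were 7.66% of all probes upward and 8.18% downward. Since dyes were not swapped, dye bias of a single probe and a true difference of the lines cannot be told apart, and in RNA of a whole culture fewer expressing cells cannot be told apart from less RNA per cell. The p-values measure only the spread between these 3 arrays, which may be technical.

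**Figure D1:**
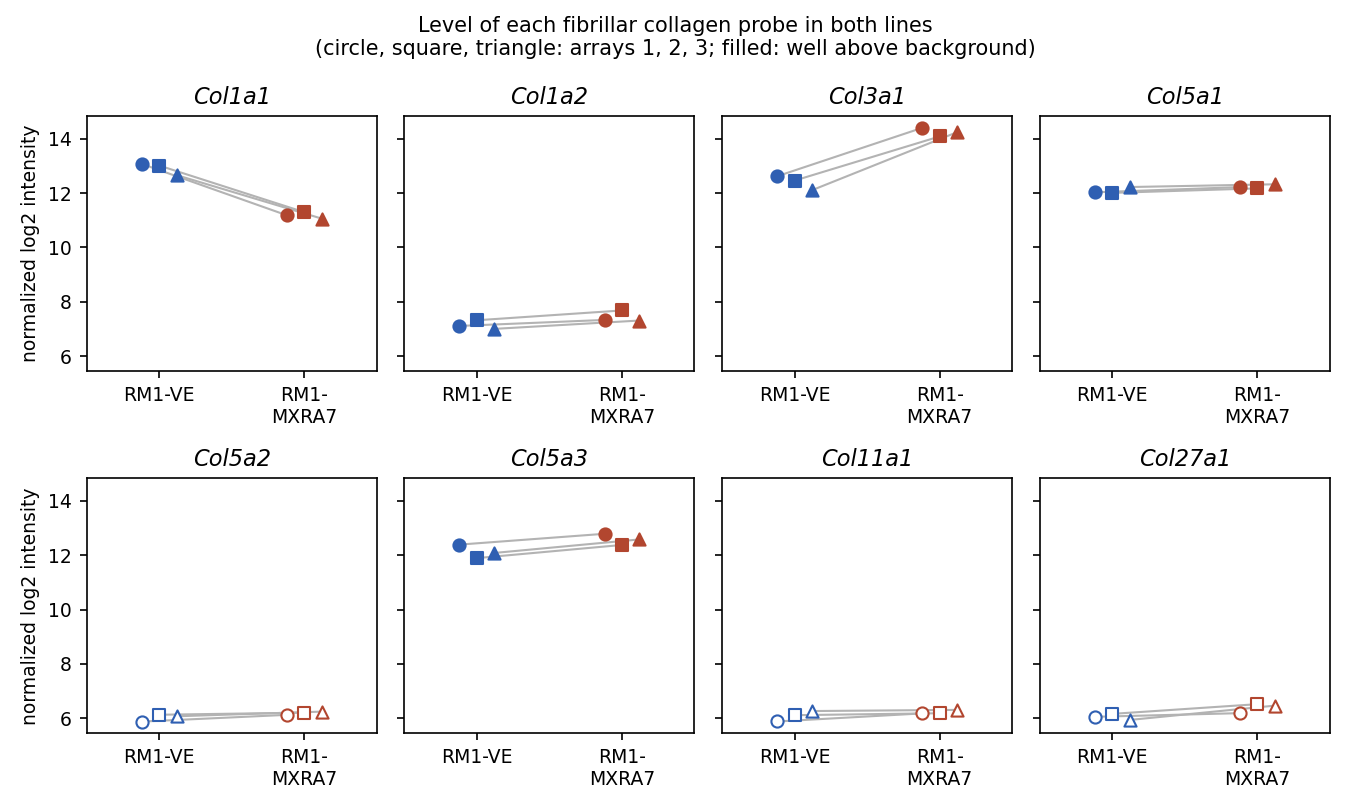
Normalized log2 intensity (y axis) of the probe of each of 8 fibrillar collagen chains in RM1-VE (blue) and RM1-MXRA7 (red), with circle, square and triangle for arrays 1, 2 and 3, lines joining both channels of an array, and open symbols for signals not well above background. Col1a1 falls from 12.66 to 13.07 in RM1-VE to 11.06 to 11.30 in RM1-MXRA7, Col3a1 rises from 12.10 to 12.62 to 14.08 to 14.40, and Col5a2, Col11a1 and Col27a1 have open symbols in both lines.

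Col1a1, the gene for the major chain of type I collagen, had normalized log2 levels of 13.07, 13.01 and 12.66 in RM1-VE on arrays 1, 2 and 3. In RM1-MXRA7 the levels were 11.18, 11.30 and 11.06. Every RM1-MXRA7 level lay below every RM1-VE level, by more than the spread of either line. The log2 ratios of -1.89, -1.72 and -1.60 gave a mean of -1.73 ± 0.15 (SD, n = 3; 95% confidence interval -1.89 to -1.58; limma adjusted p = 1.78e-07). Among the tested probes 36, this one included, had a ratio as low or lower. The fall was as large without removal of the surface trend, at -1.82, and in the processed signals, at -1.82 (limma adjusted p = 0.000173).

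Col1a2, the gene for the partner chain of type I collagen, did not fall with Col1a1. Its levels were 7.11, 7.32 and 7.002 in RM1-VE and 7.33, 7.68 and 7.31 in RM1-MXRA7. On each array RM1-MXRA7 was the higher line, but its lowest level, 7.31, lay just under the highest of RM1-VE, 7.32, so the unpaired levels overlap. The ratios of 0.22, 0.36 and 0.31 gave a mean of 0.30 ± 0.07 (SD, n = 3; 95% confidence interval 0.16 to 0.43; limma adjusted p = 0.00555). Ratios as high or higher were found for 1591 probes. This rise did not hold under every alternative: without array 2 it was 0.26 and did not pass (limma adjusted p = 0.0733). In single channels without the array as a replicate block it did not pass either (limma adjusted p = 0.273). The signal was well above background in both lines on all 3 arrays. Raw mean intensities, before normalization, were 118, 153 and 136 in RM1-VE and 147, 176 and 158 in RM1-MXRA7.

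The gap between both chains of type I collagen was measured on each array. The ratio of Col1a2 exceeded that of Col1a1 by 2.11, 2.08 and 1.91 on arrays 1, 2 and 3, a mean difference of 2.03 ± 0.11 on the log2 scale (SD, n = 3). The difference had the same sign on 3 of 3 arrays and was many times its spread. The exact two-sided sign-flip permutation test gave p = 0.25, the smallest value that 3 arrays allow, and 0.25 after Benjamini-Hochberg adjustment over the 4 pairs of chains compared. The difference is one of ratios, since levels of different probes cannot be set against each other. It was measured with the surface trend removed only. In the processed signals the mean ratios were 0.44 for Col1a2 and -1.82 for Col1a1.

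Col3a1, the single chain of type III collagen, had the opposite change to Col1a1. Its levels were 12.62, 12.46 and 12.10 in RM1-VE and 14.40, 14.08 and 14.24 in RM1-MXRA7. No RM1-MXRA7 level came near the RM1-VE range. The ratios of 1.78, 1.62 and 2.13 gave a mean of 1.85 ± 0.26 (SD, n = 3; 95% confidence interval 1.65 to 2.05; limma adjusted p = 6.46e-07). Only 14 probes of all those tested, this one included, had a ratio as high or higher. Without surface removal the value was 1.83, and in the processed signals 1.80 (limma adjusted p = 0.000747). Relative to Col1a1, Col3a1 was higher by 3.67, 3.34 and 3.73 on the 3 arrays, a mean of 3.58 ± 0.21 (SD, n = 3; exact two-sided sign-flip p = 0.25). Relative to Col1a2 the excess was 1.56, 1.26 and 1.83, a mean of 1.55 ± 0.28 (SD, n = 3), with the same exact p. The fibril-forming messages of RM1-MXRA7 thus held more Col3a1 and less Col1a1 signal per probe than those of RM1-VE.

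**Figure D2:**
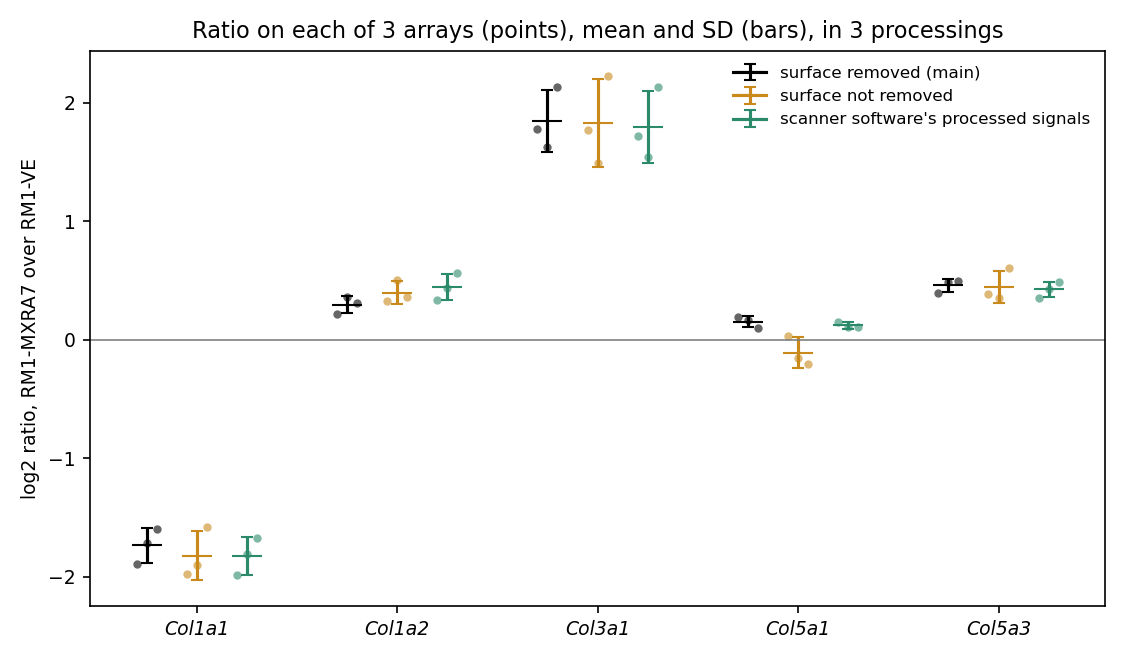
Log2 ratio of RM1-MXRA7 over RM1-VE (y axis) for the 5 chains above background, as points for 3 arrays with mean and SD bars, in 3 processings of the same scans (black, surface trend removed; orange, not removed; green, the scanner software's processed signals). Col1a1 stays between -1.73 and -1.82 and Col3a1 between 1.80 and 1.85 in the means, while the mean of Col5a1 is 0.15 in black, -0.11 in orange and 0.12 in green.

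Of the type V chains, Col5a3 rose and Col5a1 did not pass. Col5a3, the gene for a chain of restricted distribution, had levels of 12.39, 11.89 and 12.08 in RM1-VE and 12.79, 12.38 and 12.58 in RM1-MXRA7. The levels of the lines overlapped, since arrays differed from each other by as much as the lines did, but RM1-MXRA7 was higher on 3 of 3 arrays. The ratios of 0.40, 0.48 and 0.50 gave a mean of 0.46 ± 0.05 (SD, n = 3; 95% confidence interval 0.33 to 0.59; limma adjusted p = 0.00046). A ratio as high or higher was found for 480 probes. Under median centring the ratio was 0.060 and did not pass (limma adjusted p = 0.466), or 0.34 above the median of all probes under that scaling. In single channels without the replicate block it did not pass (limma adjusted p = 0.168).

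Col5a1, which encodes the chain present in most type V collagen, had levels of 12.03, 12.01 and 12.22 in RM1-VE and 12.22, 12.17 and 12.32 in RM1-MXRA7. RM1-MXRA7 was slightly higher on every array, yet the levels of the lines overlapped. The ratios of 0.19, 0.17 and 0.10 gave a mean of 0.15 ± 0.05 (SD, n = 3; 95% confidence interval 0.022 to 0.28; limma adjusted p = 0.0719). The direction depended on the processing. The surface term at this probe was -0.16, -0.32 and -0.31 on the 3 arrays, so before its removal the ratios were 0.036, -0.15 and -0.21, with a mean of -0.11. The processed signals gave 0.12, and median centring gave -0.23. Col5a3 exceeded Col5a1 by 0.21, 0.32 and 0.40 on the 3 arrays, a mean of 0.31 ± 0.10 (SD, n = 3; exact two-sided sign-flip p = 0.25).

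The other type V chain, Col5a2, and the cartilage-type chains Col11a1 and Col27a1 were not well above background in either line on any array. Their probes lay at chr1:45431204-45431263 (minus strand), chr3:113923185-113923244 (plus) and chr4:62995485-62995544 (plus), and their first 30 bases are shown so that the stretch of message behind each missing signal can be seen.
Col5a2 probe: ctatgcgttagaaaactcaggctagtgatt
Col11a1 probe: aatgtcctttggaggaaggagatatgaatt
Col27a1 probe: ccaacctttcgagtgcagccaaaccttact
These probes read the messages from transcript positions 6527, 7215 and 7094. The raw Col5a2 intensity was 72.4 to 79.0 in RM1-MXRA7 and 44.5 to 54.8 in RM1-VE. For Col11a1 the ranges were 66.7 to 82.5 and 43.4 to 71.1, and for Col27a1 they were 78.7 to 94.3 and 56.7 to 63.1. The 153 negative control spots of each array had a median of 65.2 and the 95th percentile at 75.6 in the RM1-MXRA7 channel, and 49.5 and 69.6 in the RM1-VE channel. The Col27a1 signal lay above the 95th percentile of the control spots in the RM1-MXRA7 channel on all 3 arrays and under it in the RM1-VE channel, although the scanner software called it well above background on none. Its normalized levels on arrays 2 and 3 in RM1-MXRA7, 6.52 and 6.46, also exceeded 6.34. That is the mean over the 3 arrays of the lowest level there of any probe well above background. A low Col27a1 message in RM1-MXRA7 therefore cannot be told apart from background here. No fold is given for these chains. Col5a2 encodes a chain of the common form of type V collagen, and its lack of signal is that of 1 probe.

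**Figure D3:**
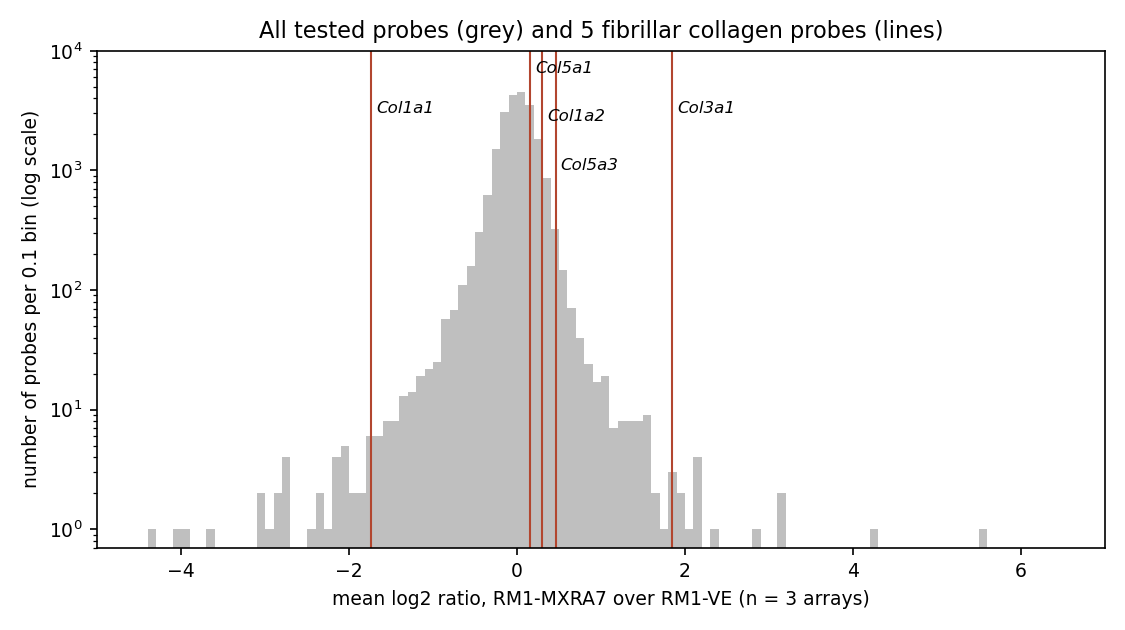
Number of tested probes (y axis, log scale) per bin of 0.1 in mean log2 ratio of RM1-MXRA7 over RM1-VE (x axis, n = 3 arrays), with red lines at the 5 fibrillar collagen chains above background. Col1a1 at -1.73 and Col3a1 at 1.85 lie in the sparse tails, and Col5a1 at 0.15, Col1a2 at 0.30 and Col5a3 at 0.46 lie in or beside the central peak.

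The start regions of the genes that rose are printed because these 3 chains rose in the same line. The windows hold 250 bases before the gene start given by RefSeq (GRCm38.p6), at chr6:4505368-4505617 (plus strand) for Col1a2, chr1:45311288-45311537 (plus) for Col3a1 and chr9:20815068-20815317 (minus) for Col5a3. Capitals mark 2 promoter motifs where they were found, the box CCAAT and the form TATAAA of the other. RefSeq windows were matched for 6 of the 8 genes, Col1a1 and Col5a2 not among them.
Col1a2 upstream window: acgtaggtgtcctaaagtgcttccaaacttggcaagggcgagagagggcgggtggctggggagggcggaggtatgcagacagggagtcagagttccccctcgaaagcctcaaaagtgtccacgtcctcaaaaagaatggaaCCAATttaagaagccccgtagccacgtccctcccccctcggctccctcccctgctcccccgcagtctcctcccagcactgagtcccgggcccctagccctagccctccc
Col3a1 upstream window: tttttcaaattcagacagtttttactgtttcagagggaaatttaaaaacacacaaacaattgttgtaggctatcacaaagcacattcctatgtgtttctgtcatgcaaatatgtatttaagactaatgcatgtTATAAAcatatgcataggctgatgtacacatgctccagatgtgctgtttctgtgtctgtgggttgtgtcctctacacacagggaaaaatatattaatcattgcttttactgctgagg
Col5a3 upstream window: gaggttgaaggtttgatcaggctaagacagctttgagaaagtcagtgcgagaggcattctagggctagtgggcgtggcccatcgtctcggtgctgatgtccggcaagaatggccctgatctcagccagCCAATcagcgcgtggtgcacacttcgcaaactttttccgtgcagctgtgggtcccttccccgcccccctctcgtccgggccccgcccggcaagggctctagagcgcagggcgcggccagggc
The Col1a2 window held CCAAT on the plus strand at -109 from the start, and that of Col5a3 at -122. The Col3a1 window held no CCAAT and held TATAAA at -117. GGGCGG, the core of a GC box, was found in the Col1a2 window at -205 and -188 and on the opposite strand in the Col5a3 window at -63 and -41, and not in the Col3a1 window. Searched on both strands, CCAAT was in 33.8%, TATAAA in 12.4% and GGGCGG in 32.7% of 32851 RefSeq windows of the same length, so each is a common match. No motif of the 3 was shared by all the chains that rose. The windows of chains not called higher held some of them too. GGGCGG was found 2 times for Col5a1, 2 times for Col11a1 and 1 time for Col27a1, and CCAAT 1 time for Col11a1.

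Probes of genes near each chain were set beside it, within 500 kb on either side. For the counts of calls here, 16.8% of all tested probes were called higher and 15% lower. Around Col1a1, 27 tested probes of 22 names lay between -0.35 and 0.33 with a median of -0.019, with 5 called higher and 3 lower. None came near the ratio of Col1a1. Around Col3a1 the 3 tested probes, of 2 names, lay between -0.047 and -0.0041 and none was called. All 3 were on the same side of Col3a1, the nearest at 253451 bp. The Col5a2 probe, on the opposite strand and 25.6 kb from that of Col3a1, was not above background, so the ratios of this collagen gene pair could not be compared. Around Col1a2, 3 probes lay between -0.30 and 0.12, with 0 higher and 1 lower. Around Col5a3, 35 probes of 26 names lay between -0.29 and 0.33 with a median of 0.040, 7 of them higher and 4 lower. Col5a1 had neighbours that differed more than it did, with 11 probes between -1.06 and 0.66, 4 of them higher, all of Olfm1, and 2 lower. The large differences of Col1a1 and Col3a1 were therefore not matched by any tested probe within 500 kb. For Col3a1 this covers few probes, with none on the other side.

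**Figure D4:**
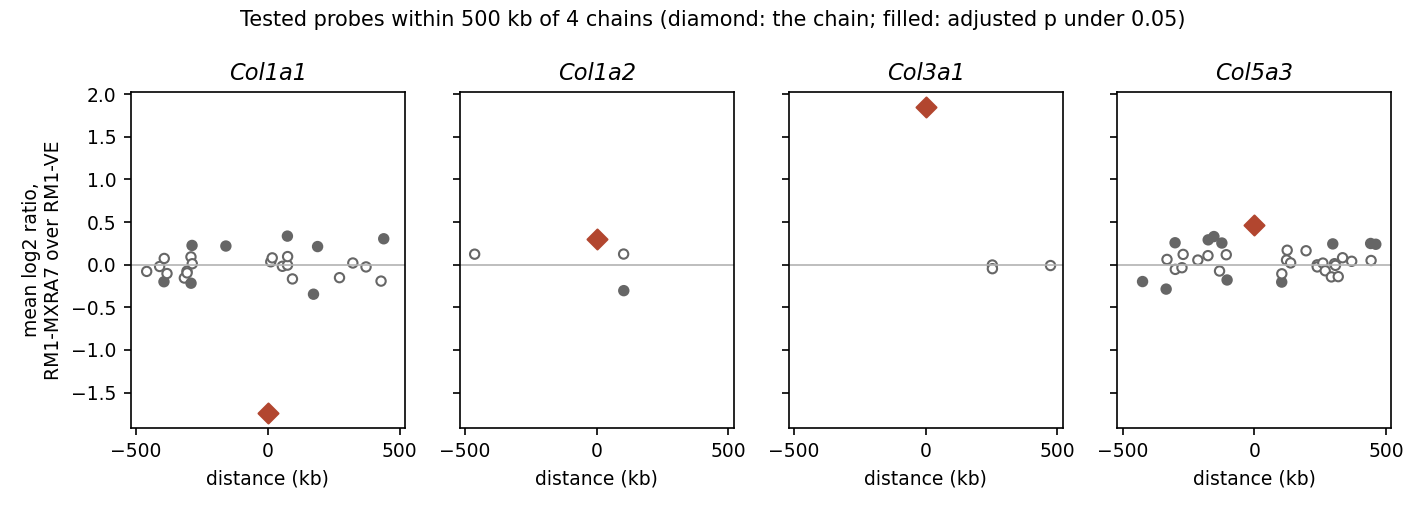
Mean log2 ratio of RM1-MXRA7 over RM1-VE (y axis, n = 3 arrays) of tested probes within 500 kb of Col1a1, Col1a2, Col3a1 and Col5a3, by distance from the chain's probe in kb (x axis), with the chain as a red diamond and filled circles for a limma adjusted p under 0.05. Neighbours of Col1a1 stay between -0.35 and 0.33 while Col1a1 lies at -1.73, and Col3a1 at 1.85 has 3 neighbours at or just below 0.

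Among 16517 probes of named genes above background in both lines on all arrays, those whose ratios on the 3 arrays came closest to Col1a1 were Serpinf1, Nxf7 and Akap12. Serpinf1, the gene for pigment epithelium-derived factor, had a mean of -1.74 ± 0.13 (SD, n = 3) at a Euclidean distance of 0.0649 from Col1a1 on the log2 scale. Nxf7, of the nuclear RNA export factor family, lay at -1.79 (distance 0.157) and Akap12, the gene for a kinase-anchoring protein, at -1.67 (distance 0.173). Second probes, both dim, lay at -0.70 for Serpinf1 and -0.63 for Nxf7, so in these ratios the likeness is that of 1 probe of each gene. In the processed signals the first and second probes lay at -2.20 and -1.81 for Serpinf1 and at -2.07 and -2.20 for Nxf7. The second Nxf7 probe did not pass there (limma adjusted p = 0.0535). Col3a1 had no such close match. The nearest were Renbp, the renin-binding protein gene, at 1.84 ± 0.19 (distance 0.358), the centrosomal gene Cntln at 1.74 (distance 0.373) and the endothelin receptor gene Ednra at 2.00 (distance 0.418). Second probes of Renbp and Cntln lay at 1.20 and 1.25. Over only 3 arrays, likeness here is mostly likeness of the mean.

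The genes that make, bind and break down fibrils did not share 1 direction. Of 84 such genes on the array 67 were tested, each by its brightest probe, and 20 were higher, 9 lower and 38 not called, with a median log2 ratio of 0.085. Among all 16819 genes tested this way 33% were called, 17.2% higher and 15.8% lower, with a median of 0.0099. These shares are also the background for the counts of each list below. Of the 67, 12 were higher and 7 lower in all 3 processings, against 7.72% and 8.86% of all genes. The directions depend on the centring, since median centring gave 9 higher and 39 lower.

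Of the other fibrillar chains, Col11a2 at 0.37 and Col24a1 at 0.22 were called higher, and Col2a1, the cartilage type II chain, was not above background. Col11a2 was above background in RM1-VE on 1 array only, and its ratio was 1.07 in the processed signals. Among genes of chain hydroxylation and folding, 15 of 16 were tested, and 4 were higher and 2 lower. P4ha1 at 0.50, P4ha2 at 0.29 and P3h3 at 0.21, for prolyl hydroxylases, and Plod2 at 0.44, for a lysyl hydroxylase, were the 4 higher ones. Of these P4ha1 and Plod2 were called in all 3 processings. P3h1, for the prolyl 3-hydroxylase that acts on type I chains, lay at -0.33 and Fkbp10, for a collagen chaperone, at -0.18. Neither was called in all 3 processings. Without surface removal Fkbp10 had 0.22, P3h1 -0.19, P3h3 0.046 and Plod2 0.28. Second probes lay at 0.31 for P4ha1 and -0.10 for P3h1. Serpinh1, the gene for the collagen-specific chaperone HSP47, had 0.25 ± 0.25 (SD, n = 3) and did not pass (limma adjusted p = 0.0568).

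Outside the cell, 5 of 10 genes of propeptide removal were tested. Pcolce2, for an enhancer of the C-proteinase, was called higher at 0.38, and so was Bmp1, the C-proteinase gene itself, at 0.29, although its other probes lay at 0.08 and -0.09. Without surface removal Pcolce2 had 0.095 and the called Bmp1 probe 0.077. Adamts14, for an N-proteinase, lay at -0.29 (-0.51 without surface removal) and was the member called in all 3 processings. Of the cross-linking lysyl oxidases, 3 of 5 were tested and Loxl3 was called higher at 0.28, while Lox and Loxl1 were not above background. Among fibril-bound proteins and nucleators, 9 of 12 were tested, with 3 higher and 2 lower. Fn1, the gene for fibronectin, on which collagen fibrils are assembled, rose by 0.92 ± 0.17 (SD, n = 3; limma adjusted p = 1.89e-05). Col12a1 at 0.48 and Dcn, the decorin gene, at 0.26 were called higher with an SD of 0.42 and 0.25. Thbs2, the gene for the matrix protein thrombospondin 2, was called lower, but RM1-MXRA7 was above background on 1 array only, and the size of its ratio was not settled, at -1.34 here and -2.68 in the processed signals. Sparc, for a collagen-binding matrix protein, lay at -0.38 (-0.71 without surface removal), and its dimmer probe at 0.02.

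**Figure D5:**
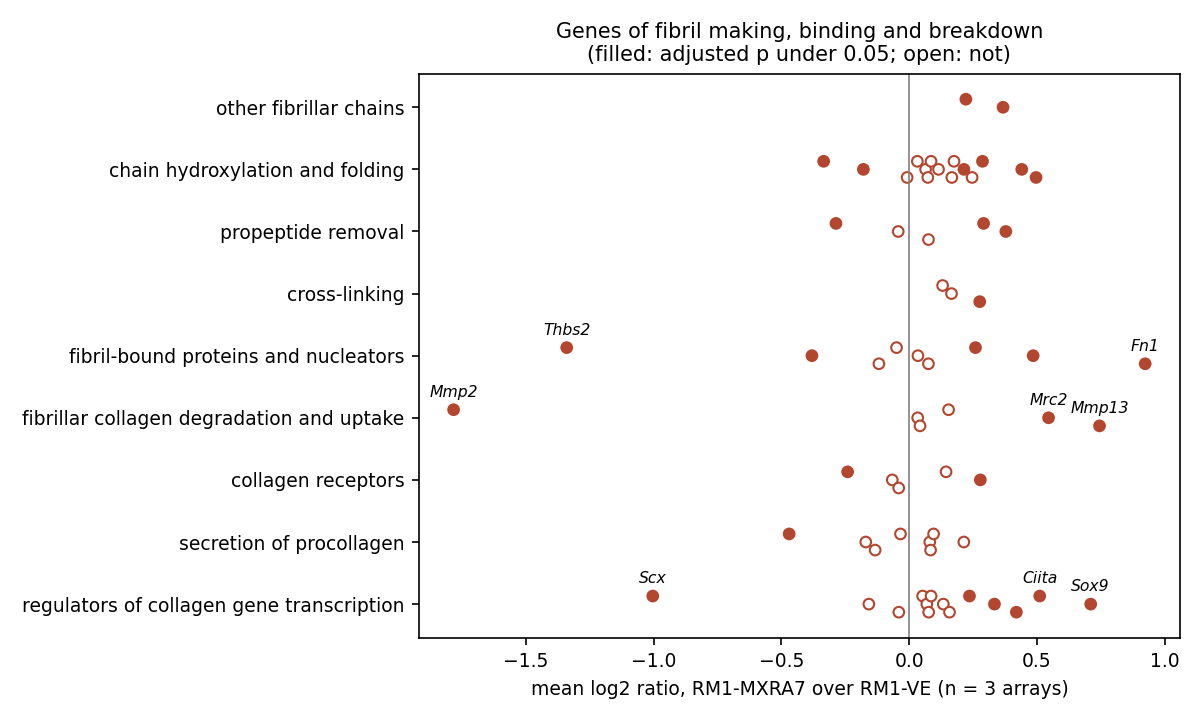
Mean log2 ratio of RM1-MXRA7 over RM1-VE (x axis, n = 3 arrays) of 67 tested genes in 9 lists of fibril making, binding and breakdown (y axis), with filled circles for a limma adjusted p under 0.05 and names where the absolute ratio is at least 0.5. Open circles mark the 38 genes not called, while Mmp2, plotted at its measured ratio although RM1-MXRA7 was not above background, Thbs2 at -1.34 and Scx at -1.003 lie to the left and Fn1 at 0.92 and Mmp13 at 0.74 to the right. The directions depend on the centring, with 9 called higher and 39 lower under median centring, which is not plotted.

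Genes of collagen breakdown also went both ways. Mmp13, a collagenase gene that cuts fibrillar collagens, rose by 0.74 ± 0.23 (SD, n = 3; limma adjusted p = 0.000197), and Mrc2, for an endocytic collagen receptor, by 0.55 ± 0.04, although its other probes lay at 0.39 and -0.07. Mmp2, for a gelatinase that degrades denatured collagen, was not above background in RM1-MXRA7 on any array. It was at least 3.41-fold lower there, and its measured fold was 3.44. This bound was set per array against the lowest signal well above background or, where higher, the signal of Mmp2 itself. The bound therefore cannot lie far under the measured fold where that signal was used. Mmp2 entered the test through RM1-VE alone. The size of its log2 ratio was not settled, at -1.78 here and -4.32 in the processed signals. The other 3 tested, among them the membrane collagenase gene Mmp14 at 0.15, were not called. Of the collagen receptors, 5 of 9 were tested, and Ddr2, the receptor tyrosine kinase that binds fibrillar collagens, had 0.28 and Lair1 -0.24. The second Ddr2 probe lay at 0.038 (limma adjusted p = 0.646), and the first was not called without surface removal, at 0.16, or in the processed signals, at 0.20. Lair1 lay at -0.58 in the processed signals. Of 8 genes for secretion of procollagen only Mia2 was called, at -0.47.

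Of 14 regulators of collagen gene transcription, 5 were called higher and 1 lower, against 17.2% and 15.8% of all genes tested. Sox9, best known as the activator of cartilage collagens, rose by 0.71 ± 0.10 (SD, n = 3; limma adjusted p = 4.7e-05). Smad2, which carries signals of TGF-beta receptors, had 0.42, Runx2, the bone regulator, 0.33 (0.81 in the processed signals) with a dimmer probe at -0.09, and Cebpb 0.24 (0.082 without surface removal). Ciita, described as a repressor of type I collagen genes, was not above background in RM1-VE. It was at least 1.36-fold higher in RM1-MXRA7, a bound set as for Mmp2. Ciita entered the test through RM1-MXRA7 alone, and its log2 ratio was 0.51 here and 2.44 in the processed signals. Scx, the scleraxis gene, a tendon factor that activates type I collagen genes, fell by 1.003 ± 0.15 on the log2 scale (n = 3; limma adjusted p = 8.49e-06), and its ratio was -1.63 in the processed signals. The TGF-beta genes Tgfb1, Tgfb2 and Tgfb3 had -0.041, -0.16 and 0.076 and were not called. All but Cebpb of the 6 called regulators were called in all 3 processings.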

How the data were processed

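Per the file headers, the deposited files are the scanner output of Agilent's Feature Extraction software (version 10.7.1.1, per the submitters' processing notes) with the mean, background and processed intensity of each spot. A linear ratio deposited in the series matrix was the processed Cy3 over Cy5 signal, to within 1% for 100% of values, uncentred, with column medians of 1.02, 1.03 and 0.972. Background was corrected by normexp with an offset of 50, followed by loess within arrays (limma 3.58.1, R 4.3.3). A polynomial surface over row and column (degree 4, alone and times intensity), which held 27.3%, 25.8% and 19.8% of the variance, was removed per array. Control and flagged spots were left out and spots of a probe averaged. Probes with 1 channel or both well above background throughout the 3 arrays were kept, and their log2 ratios of RM1-MXRA7 over RM1-VE tested against 0 with eBayes and Benjamini-Hochberg adjustment over all 21791. The moderated spread had 7.71 prior and 2 residual degrees of freedom. Levels per channel are after Aquantile. Symbols came from RefSeq accessions for 27508 probes, otherwise from the files.

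The chains, gene lists and tests were chosen with earlier results of these data known, and so was the surface removal. Genes named outside the chains are called list members of at least 0.5 (log2), Mxra7 and the 3 probes nearest to Col1a1 and to Col3a1. Other list members were named after their values were seen. All arrays were on 1 slide with 1 scan date. The numbered arrays each pair both lines, so the ratio holds the pairing. Same-numbered channels correlated at 0.751, 0.772 and 0.761 in their deviations from the line means. Both channels of an array share the mean intensity of each spot, so this correlation does not show that the repeats are matched cultures. Alternatives covered the surface, background correction, normalization, filters, processed and series matrix values, the single channels and each array left out. The steps were tested on simulated data. Some markers of the cell type lists are not reported here.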

Additional observations from a re-analysis of the deposited data

How the results depend on the processing

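Col1a1 lay between -2.12 and -1.66 and Col3a1 between 1.39 and 1.96 under all 17 alternatives and passed in each (highest limma adjusted p 0.000658 and 0.00102). The alternatives are not independent, since the filters and single channels keep the ratio and the series matrix repeats the processed signals. With single channels and no replicate block, 2 chains were called in place of 4, Col1a2 at 0.30 and Col5a3 at 0.46 no longer passing (adjusted p = 0.273 and 0.168), and 855 probes and 9 of the related genes were called. Single channels with the replicate block gave 6924 probes and 4 chains, as they must, since that fit equals the paired fit of the ratios. Under median centring, which moved the median of all probes to -0.28, Col5a3 was 0.060 and Col5a1 -0.23 (limma adjusted p = 0.0103), and 15176 probes and 48 of the related genes were called against 6924 and 29. Relative to that median, Col1a1 was -1.84, Col1a2 0.48, Col3a1 1.66, Col5a1 0.043 and Col5a3 0.34. Col5a1 was also -0.11 without surface removal and passed at 0.22 with a surface of degree 2 (limma adjusted p = 0.0326). Without the filter 11133 probes were called, and 5 chains in place of 4, with 4 of the 5 higher. Col5a1 did not pass there (limma adjusted p = 0.063), so the added call was of a chain not above background. With 1 array left out, 2649 to 6434 probes were called, the fewest without array 2, 17 to 29 of the related genes, and 3 to 4 chains, with Col1a2 at 0.26 to 0.33. Of 306 counts per related list and direction, 246 stayed within 1.5 times. The cause of these shifts was not tested. Limits are the 3 arrays, the fixed dye orientation and 1 probe per chain. Col5a2, Col11a1 and Col27a1 were too dim for a comparison.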
